A study of Mus musculus with 8 samples.

Results

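The genes of MHC class II antigen presentation were followed in RNA-seq of macrophages sorted from mouse hearts. They comprised 10 genes, taken by their symbols from a table of 36708 gene IDs: H2-Aa, H2-Ab1, H2-Eb1, H2-DMa, H2-DMb1, H2-DMb2, Cd74, Ciita, Ctss and Cd86. All 10 had a row, and all 10 were among the 11725 genes that entered the test. The libraries came from mice given a bone marrow transplant (BMT), 4 labelled control BMT with the genotype Control and 4 labelled LOY BMT with the genotype LOY, which is loss of the Y chromosome. The treatment label reads Control in both groups, and the sources used here give no strain, no age and not the way in which Y was lost. Per the labels' protocols, left ventricles were digested with enzymes and 6000 living cells per library were sorted as CD45.2+ Ly6G- CD64+ RFP+, where CD64 is an Fc receptor of macrophages and Ly6G a neutrophil protein. Every value below is for cells that passed this RFP gate, and the labels do not say which cells of the host or donor RFP marks. The labels do not state whether libraries of one group are from different mice, so p-values measure only the spread between these samples, and it may be technical.

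MHC class II molecules carry peptides from taken-up proteins to the cell surface, where CD4+ T cells read them. An alpha and a beta chain assemble on the invariant chain, encoded by Cd74, which fills the peptide groove until proteases, cathepsin S (Ctss) last among them, cut it down to a short remnant. The DM molecule, built from H2-DMa with H2-DMb1 or H2-DMb2, then exchanges that remnant for peptide. Transcription of the class II chains, the invariant chain and DM is governed by Ciita, a coactivator that binds no DNA itself and is recruited by factors on the X and Y boxes of these promoters. Cd86 is a ligand for CD28 on T cells and gives the costimulatory signal. In the heart, class II levels are commonly used to divide macrophages into subsets.

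Promoter sequence is shown first, because the genes of the class II chains, the invariant chain and DM are known for sharing X and Y boxes. RefSeq windows (GRCm38.p6) matched 6 of the 10 genes, and the others were H2-Ab1, Cd74, Ciita and Cd86. The X box core was searched as G, any 2 bases, AC, any 2 bases and ATG, and the Y box as CCAAT, on both strands of the 250 bases before each start, and the letters of the one do not overlap those of the other. The 150 bases before the RefSeq start of 4 genes are printed 5′ to 3′ on the strand of the gene, with the matches in capitals. H2-Eb1 is chr17:34305717-34305866 on the plus strand, H2-Aa is chr17:34287824-34287973 on the minus strand, H2-DMb1 is chr17:34153041-34153190 on the plus strand and H2-DMb2 is chr17:34145099-34145248 on the plus strand. The RefSeq starts of H2-DMb1 and H2-DMb2 lie downstream of the gene starts in the GENCODE annotation given with the values below, so the window of H2-DMb2 lies within its GENCODE gene and that of H2-DMb1 does so in part.
H2-Eb1: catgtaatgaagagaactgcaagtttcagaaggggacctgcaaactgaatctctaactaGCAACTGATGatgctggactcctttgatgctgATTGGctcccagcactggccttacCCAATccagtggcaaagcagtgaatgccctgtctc
H2-Aa: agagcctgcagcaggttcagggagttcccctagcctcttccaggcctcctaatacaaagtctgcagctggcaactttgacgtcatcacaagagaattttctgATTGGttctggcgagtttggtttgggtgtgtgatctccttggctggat
H2-DMb1: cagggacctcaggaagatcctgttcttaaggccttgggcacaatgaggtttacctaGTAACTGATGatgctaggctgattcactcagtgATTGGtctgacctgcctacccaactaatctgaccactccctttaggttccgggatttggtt
H2-DMb2: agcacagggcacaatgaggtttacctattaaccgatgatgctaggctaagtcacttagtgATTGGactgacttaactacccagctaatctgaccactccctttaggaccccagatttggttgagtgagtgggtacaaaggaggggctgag
H2-Eb1 and H2-DMb1 held an X box core followed within 40 bases by a Y box, as did H2-Ob outside the members. Of 32851 windows of the same length, 7.59% held the X box core, 33.8% the Y box and 1.6% both within 40 bases. H2-Aa and H2-DMb2 held the Y box letters and no match to the X box letters as searched. In H2-DMb2 a run before the Y box missed those letters only at its first base. One of the windows of H2-DMa held a Y box, and that of Ctss held neither. A match is a run of letters and not a measured site. A window without a match may hold a form of the box that the searched letters miss.

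Levels are given in TPM, a length-corrected transcript abundance scaled to a fixed total per library, which leaves depth unknown and no counting interval is given. The members spanned a wide range. Cd74 was the most abundant gene of the whole table in each of the 8 libraries, at 2.94% to 4.74% of all TPM, and the 10 genes together held 6.89% to 9.70%. By mean TPM the order was Cd74, H2-Ab1, H2-Aa, H2-Eb1, Ctss, H2-DMb1, H2-DMa, Cd86, Ciita and H2-DMb2. Each gene stood above the next in 8 of 8 libraries, except that Ciita stood above H2-DMb2 in 7 of 8. Over the 8 libraries the range of H2-Aa overlapped that of H2-Eb1, and the range of Ciita overlapped that of H2-DMb2, while the ranges of all other neighbours in this order were separate.

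**Figure D1:**
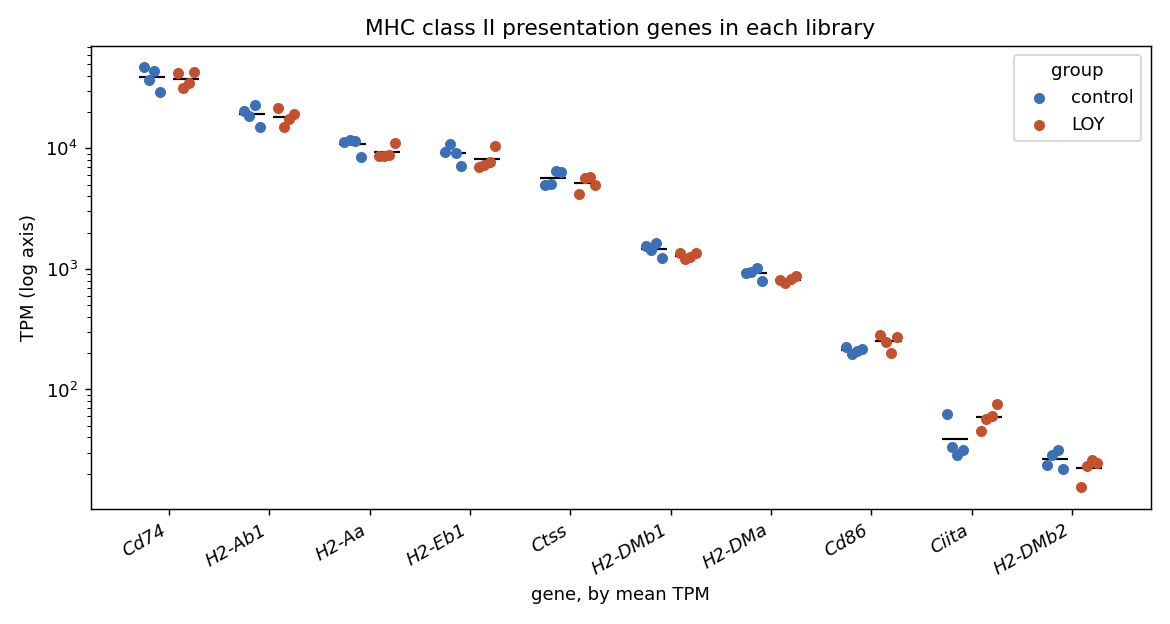
Level of each of the 10 genes in TPM on a log axis, with 1 point per library, control and LOY in separate colours and a bar at each group mean. The groups overlap for every gene, Cd74 lies highest at 29370.1 to 47424 TPM, and Ciita and H2-DMb2 lie lowest.

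No member differed between LOY and control libraries past the threshold. Groups were compared with limma on log2(TPM + 1), two-sided, with Benjamini-Hochberg adjustment over all tested genes and a threshold of 0.05. Of the 11725 genes, 0% were called, and 0 of the 10 members. At an unadjusted p under 0.05, 1 member, Ciita, was higher in LOY libraries, where 19.3% of all tested genes were, and 0 members were lower, where 3.45% were. Groups without overlap were found for 0 members, against 6.76% of tested genes higher and 2.61% lower in LOY libraries. Log2 fold changes of 8 of the 10 members lay below 0, with a median of -0.16, while 31.8% of tested genes lay below 0 and the median of all tested genes was 0.16. After median-of-ratios scaling the medians were -0.34 for the members and 0.00 for all genes, and the same count lay below 0. Quantile normalization gave -0.05 for the members and -0.02 for all genes, with 6 members below 0 and H2-Ab1 and Cd74 at 0.00. That method gives equal ranks equal values, and Cd74 was the most abundant gene in every library, so its 0.00 was fixed in advance. H2-Ab1, at ranks 3 to 5, had little room to differ, and the median and count in this setting include both genes. With the length and GC trend of each library taken out, the median of the members was 0.09 against 0.16, and 3 lay below 0, as H2-Ab1, H2-Eb1, H2-DMb1, Cd74 and Ctss changed sign. Of the genes at an unadjusted p under 0.05, 84.8% were higher in LOY libraries, against 50.1% with quantile normalization and 49.6% with median-of-ratios scaling. In bulk RNA, fewer cells of a type and less RNA per cell cannot be told apart.

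**Figure D2:**
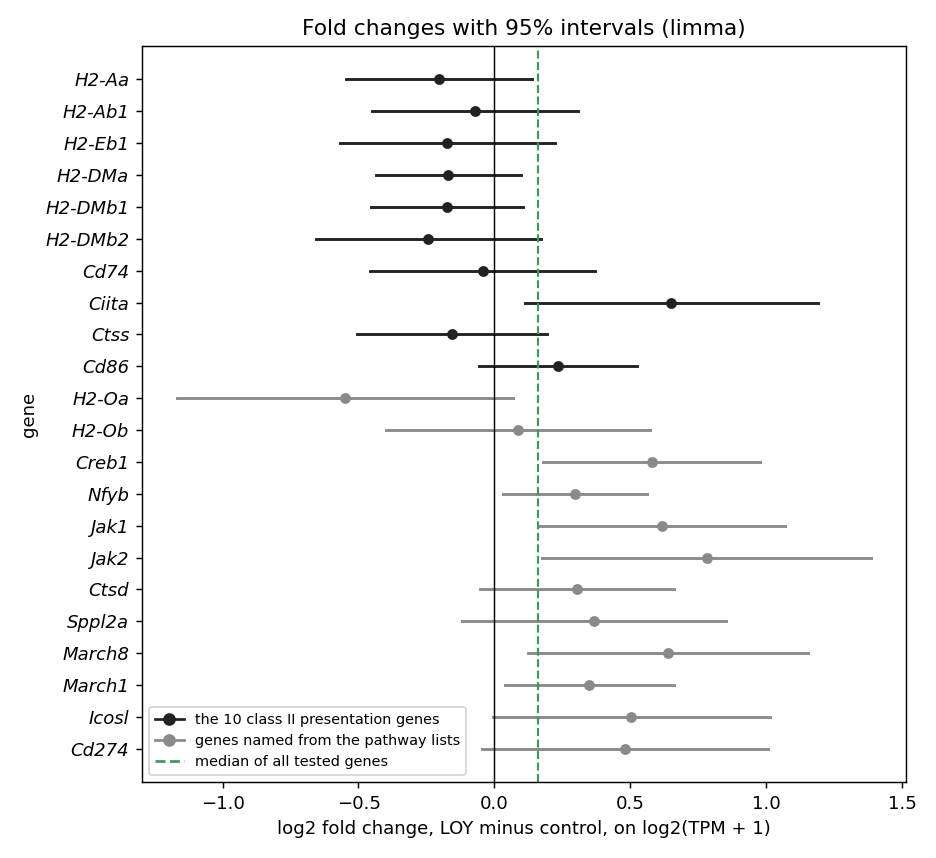
Log2 fold change, LOY minus control, on log2(TPM + 1), with its 95% interval from limma, for the 10 members in black and the genes named from the pathway lists in grey. The dashed line is the median of all tested genes at 0.16, and among the members the interval of Ciita alone lies clear of 0.

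The control and LOY libraries overlapped for each of the class II chains and for the invariant chain. H2-Ab1 (chromosome 17, 34257689 to 34269419, GRCm38), the beta chain of the A molecule, stood at 20609, 18673, 22829 and 15195 TPM in control replicates 1 to 4 and at 21565, 15105, 17460.2 and 19239 TPM in LOY replicates 1 to 4. The lowest value of each group was nearly the same, and the groups overlapped over most of their range. The means were 19327 ± 3236 and 18342 ± 2735 TPM (SD, n = 4 each), a log2 difference of -0.07 (SE 0.17; limma, adjusted p = 0.815).

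H2-Aa (17, 34282744 to 34287823), the alpha chain that pairs with it, stood at 11355, 11798, 11496 and 8476 TPM in control and 8734, 8628, 8900.4 and 11071 TPM in LOY replicates. In each group 3 libraries lay close together and replicate 4 stood apart, downward in control and upward in LOY. The means were 10781 ± 1548 and 9333 ± 1164 TPM (SD, n = 4 each), and the log2 difference was -0.20 (SE 0.15; limma, adjusted p = 0.424). The interval of the fold change ran from -0.55 to 0.14. Without control replicate 4 the groups of H2-Aa, H2-DMa and H2-DMb1 no longer overlapped, and none of the 3 was called. Groups part more easily with a library left out. The share of all tested genes without overlap in that fit is not given here, so these 3 are not read as a result.

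H2-Eb1 (17, 34305867 to 34316674), the beta chain of the E molecule, stood at 9414, 10940.0, 9097 and 7160.1 TPM in control and 7002, 7357, 7689 and 10479 TPM in LOY replicates. As for H2-Aa, LOY replicate 4 was high and control replicate 4 low among the libraries of their groups. The means were 9153 ± 1553 and 8132 ± 1590 TPM (SD, n = 4 each), and the log2 difference was -0.17 (SE 0.18; limma, adjusted p = 0.559).

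Cd74 (18, 60803848 to 60812652) stood at 47424, 36841, 44225 and 29370.1 TPM in control and 42459, 31679, 34882 and 42876 TPM in LOY replicates. The control libraries held both the highest and the lowest value. The means were 39465 ± 8058 and 37974 ± 5577 TPM (SD, n = 4 each), and the log2 difference was -0.04, with an interval from -0.46 to 0.37 (SE 0.19; limma, adjusted p = 0.902).

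Ratios within a library, which a single scaling factor per library leaves as they are, did not differ past the threshold. They were not computed with quantile normalization or with the length and GC trend taken out. The latter gave log2 fold changes of -0.185 for H2-Aa and 0.134 for H2-Ab1. The ratios were compared by an exact two-sided permutation test over the 70 assignments, which can reach 0.0286 at the smallest, with p adjusted over 3 ratios. Cd74 stood at 2.04 ± 0.178 TPM per TPM of H2-Ab1 in control and 2.07 ± 0.117 in LOY libraries (SD, n = 4 each; exact permutation p = 0.714, adjusted 0.83). H2-Aa stood at 0.561 ± 0.053 and 0.515 ± 0.0794 per H2-Ab1 (SD, n = 4 each; exact permutation p = 0.486, adjusted 0.83). The lowest H2-Aa to H2-Ab1 ratio, 0.405, was that of LOY replicate 1, in which H2-Ab1 was high and H2-Aa low.

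In TPM, each of the DM genes overlapped between the groups. H2-DMa (17, 34119541 to 34139101), the alpha chain, stood at 929.8, 944.4, 1022 and 787.4 TPM in control and 807.4, 760.7, 817.7 and 879.6 TPM in LOY replicates, the narrowest range of the members at 1.34-fold. Of the control libraries, 3 lay above every LOY library and control replicate 4 lay within their range. Means were 920.8 ± 97.7 and 816.4 ± 48.9 TPM (SD, n = 4 each; log2 fold change -0.17, SE 0.12; limma, adjusted p = 0.393). After median-of-ratios scaling the log2 fold change of H2-DMa was -0.35 and its groups no longer overlapped (limma, adjusted p = 0.232). The share of all tested genes without overlap in that setting is not given here. Exons of H2-DMa overlap Brd2 on the opposite strand, and the library kit keeps no strand, so reads of the 2 genes cannot be told apart there.

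H2-DMb1 (17, 34153072 to 34160230), a beta chain, stood at 1553, 1431, 1634 and 1233 TPM in control and 1360.0, 1204, 1250.2 and 1353 TPM in LOY replicates, and the log2 difference was -0.17 (SE 0.13; limma, adjusted p = 0.404). H2-DMb2 (17, 34143307 to 34151555), the neighbouring beta chain gene, was far lower, at 23.9, 28.5, 31.3 and 22.0 TPM in control and 15.4, 23.4, 26.1 and 24.8 TPM in LOY replicates (log2 fold change -0.24, SE 0.19; limma, adjusted p = 0.429). Both pairs of groups overlapped. The value of H2-DMb2 was -0.08 without LOY replicate 1, -0.43 with quantile normalization, -0.42 with median-of-ratios scaling and -0.02 with the length and GC trend taken out. Of the 50-base words of the longest H2-DMb1 transcript, 27.2% also occur in H2-DMb2. For the longest H2-DMb2 transcript, 30.9% occur in other genes, mostly in H2-DMb1. The counting could therefore split reads between H2-DMb1 and H2-DMb2, and the level of H2-DMb2 in particular is uncertain. The ratio of H2-DMb1 to H2-DMb2 was 55.9 ± 6.63 in control and 60.6 ± 18.7 in LOY libraries (SD, n = 4 each; exact permutation p = 0.83, adjusted 0.83), and LOY replicate 1 stood highest at 88.4.

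Ciita was the member with the smallest p. It lies on chromosome 16 from 10480059 to 10528418 and stood at 62.5, 33.3, 28.4 and 31.5 TPM in control and 45.6, 56.5, 60.5 and 75.6 TPM in LOY replicates. Control replicates 2 to 4 lay below every LOY library, while control replicate 1 lay above 3 of the 4. The means were 38.9 ± 15.9 and 59.6 ± 12.4 TPM (SD, n = 4 each), and the log2 difference was 0.65 (SE 0.24, interval 0.11 to 1.19). In limma the unadjusted p was 0.0225 and the Benjamini-Hochberg adjusted p was 0.182. Without control replicate 1 it was called, with a log2 difference of 0.90 (limma, adjusted p = 0.0139), in a fit that called 14.9% of all tested genes higher. Without control replicate 2, 3 or 4 or LOY replicate 4 it lost its unadjusted p under 0.05, with limma p of 0.055, 0.066, 0.060 and 0.070 (adjusted p from 0.259 to 0.418). With libraries weighted by their agreement with their group it was called at 0.82 (limma, adjusted p = 0.0107), where 23.5% of genes were called higher. It was 0.49 under quantile normalization, 0.47 under median-of-ratios scaling and 0.36 with the length and GC trend taken out (limma, adjusted p = 0.280). The longest Ciita transcript has 6007 bases against a median of 3180 over the tested genes, an exon overlaps Dexi on the opposite strand, and the part of transcript length in its fold change beyond that value was not tested. In the authors' deposited table its log2 fold change was 0.71 with an unadjusted p of 0.0113 and an adjusted p of 0.101. Of the 36671 genes with a p-value in the authors' deposited table, 9.76% were higher at an unadjusted p under 0.05. Of the 16073 with an adjusted p, 3.94% were called. The 9.76% takes in genes below the filter of 1 TPM, so it cannot be set beside the 19.3% of the 11725 tested genes. The difference in sign between Ciita and the class II chains was not tested.

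Ctss (3, 95526786 to 95556403) stood at 4962, 5106, 6476 and 6411 TPM in control and 4186, 5677, 5782 and 4969.9 TPM in LOY replicates. It was high in control replicates 3 and 4 and lowest in LOY replicate 1, an order unlike that of the chains. The log2 fold change was -0.16 (SE 0.16; limma, adjusted p = 0.551). Cd86 (16, 36603869 to 36666081) stood at 226.0, 197.6, 207.1 and 216.3 TPM in control and 285.0, 247.3, 199.7 and 273.6 TPM in LOY replicates, so that 3 of the 4 LOY libraries lay above every control library. The log2 difference was 0.24 (SE 0.13, interval -0.06 to 0.53; limma, adjusted p = 0.291). It was 0.05 after median-of-ratios scaling and 0.38 with the length and GC trend taken out, and without LOY replicate 3 it was 0.34 and the groups no longer overlapped (limma, adjusted p = 0.224 and 0.230 for the latter 2). The share of all tested genes without overlap in the fit without LOY replicate 3 is not given here either.

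**Figure D3:**
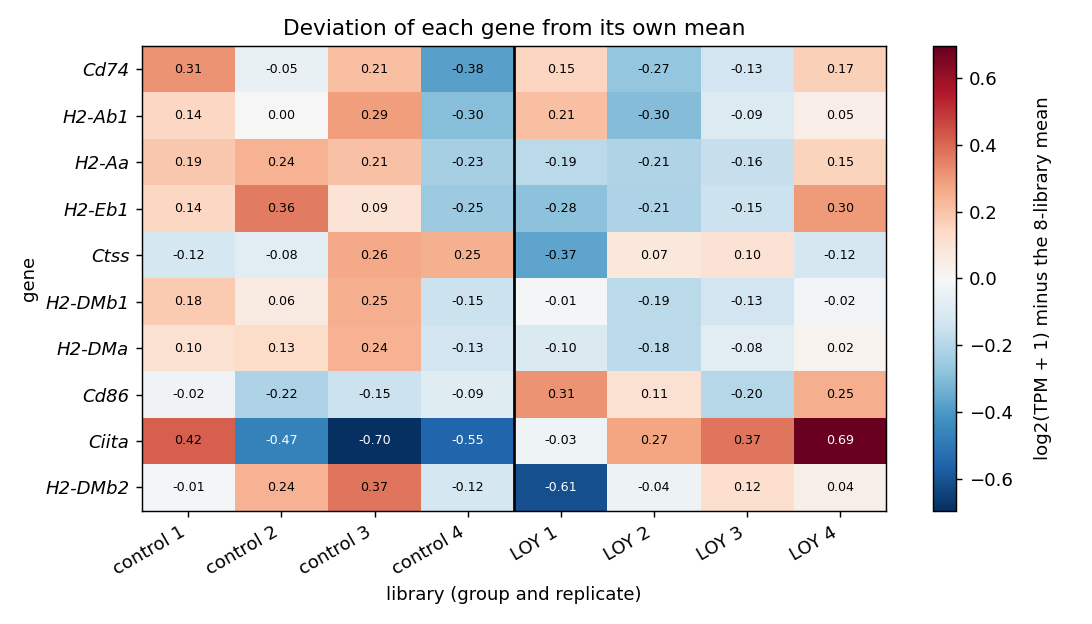
Deviation of each gene in each library from its own mean over the 8 libraries, on log2(TPM + 1), with genes in rows and libraries in columns. Control replicate 4 and LOY replicates 2 and 3 are below 0 for Cd74, H2-Ab1, H2-Aa, H2-Eb1, H2-DMa and H2-DMb1. LOY replicate 1 is below 0 for H2-Aa, H2-Eb1, H2-DMa and H2-DMb1 but above 0 for Cd74 and H2-Ab1. Ciita follows another order.

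Pairs of members moved together across libraries to different degrees. Pearson's r over the 8 libraries, a description with no test, was 0.939 between H2-Aa and H2-Eb1, 0.934 between H2-DMa and H2-DMb1 and 0.922 between H2-Ab1 and Cd74, but 0.394 between H2-Ab1 and H2-Eb1. The r of Ciita with H2-Aa, H2-Ab1, H2-Eb1 and Cd74 lay between -0.093 and 0.228. Libraries share their preparation and a fixed TPM total, and these values rest on 8 points. The patterns of 10761 tested genes outside the members were compared with the mean of H2-Aa, H2-Ab1, H2-Eb1 and Cd74 over the 8 libraries. Most like it were Eif1, a translation initiation factor (r = 0.948), Anapc11, a subunit of the anaphase-promoting complex (0.947), and Clec4b1, a lectin receptor (0.930). Next came Dnaic1, a dynein chain (0.929), and Tmem176b, a membrane protein (0.907). Spearman's rho, taken on ranks, was 0.762, 0.929, 0.905, 0.952 and 0.571 in the same order. Dnaic1 stood at only 0.564 to 1.55 TPM, near the filter of 1 TPM.

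The class II share was lowest in the 3 libraries with the highest monocyte markers, with no such order among the other libraries. H2-Aa, H2-Ab1, H2-Eb1 and Cd74 together took 8.88%, 7.83%, 8.77% and 6.02% of TPM in control and 7.98%, 6.28%, 6.89% and 8.37% in LOY replicates, or 7.87% ± 1.32 against 7.38% ± 0.963 (SD, n = 4 each). The summed TPM of the monocyte markers Ly6c2, Ccr2, Plac8 and Chil3, 4 of 4 of which reached 10 TPM, was 1315, 1153, 1745 and 3585 in control and 484.5, 2976, 3164 and 1318 in LOY replicates. The 3 libraries with the highest marker sums, control replicate 4 and LOY replicates 2 and 3, held the 3 lowest class II shares. Among the other libraries the share did not fall as the sum rose. LOY replicate 1, with the lowest sum, held 7.98%, and control replicate 3, at 1745 TPM, held 8.77%. Single chains did not all follow the order of the marker sums either. LOY replicate 1, with the lowest marker sum, had the lowest H2-Eb1 of all libraries, at 7002 TPM. Its H2-Aa, at 8734 TPM, lay below the 8900.4 TPM of LOY replicate 3, while its H2-Ab1 and Cd74 were above their means over the libraries. The sum of the resident macrophage markers Timd4, Lyve1, Folr2, Cd163 and Cbr2 ran from 644.7 to 1174 TPM in control and from 576.6 to 1634 TPM in LOY libraries. Its 3 lowest values, 644.7, 618.1 and 576.6 TPM, were also those of control replicate 4 and LOY replicates 2 and 3. The part of these cell types in the class II level was not tested.

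**Figure D4:**
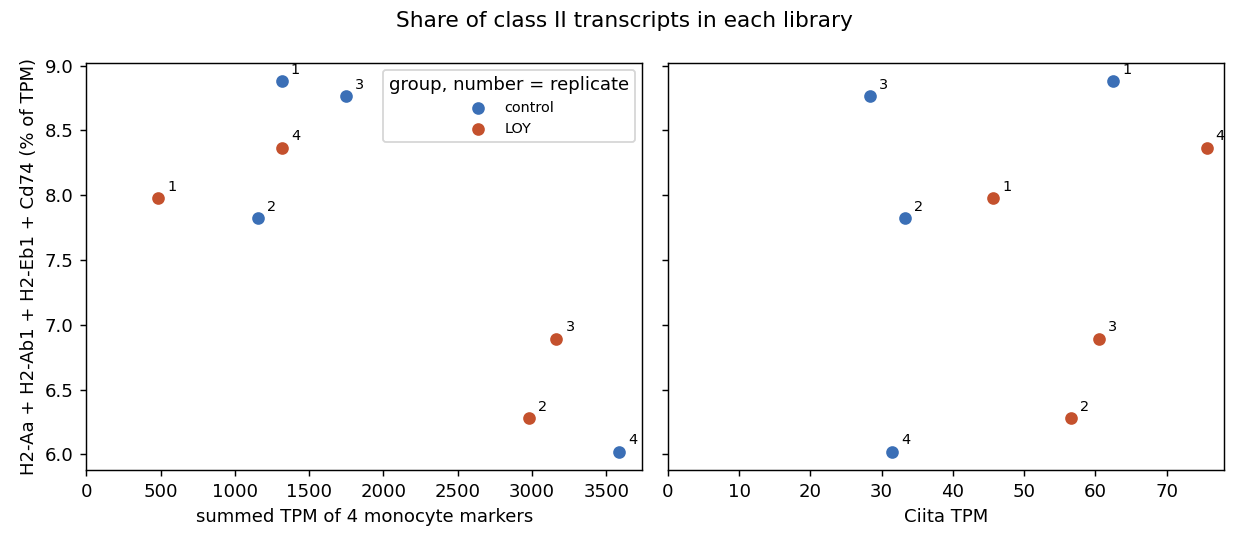
Share of TPM held by H2-Aa, H2-Ab1, H2-Eb1 and Cd74 in each library, in percent, against the summed TPM of 4 monocyte markers on the left and against Ciita in TPM on the right. The 3 libraries with the highest monocyte sums, 2976 to 3585 TPM, hold the 3 lowest shares, and the shares show no such order by Ciita. Among the other libraries the share does not fall as the monocyte sum rises.

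Markers of other cell types were compared in the same libraries. All 9 macrophage markers reached 10 TPM, and 3 of them, Csf1r, Mertk and Itgam, were higher in LOY libraries at an unadjusted p under 0.05, with no call. Mertk, a receptor for the uptake of dying cells, was at 50.7 ± 16.7 TPM in the LOY group against 21.9 ± 8.20 TPM in the control group, without overlap (SD, n = 4 each; interval of the log2 fold change 0.55 to 1.84; limma, adjusted p = 0.179). The share of all tested genes higher at an unadjusted p under 0.05 was 19.3%, and 3.45% were lower. Without overlap, 6.76% of all tested genes were higher. Outside this list, Csf3r (neutrophil), Kdr (endothelial cell) and Myh6 (cardiomyocyte) were higher at such a p. Batf3 (dendritic cell) and Cd79b (B cell) were lower, and Cd79b was so without overlap, as were 2.61% of all tested genes. None of these was called. Of 10 dendritic cell markers, 7 were under 5 TPM in every library, Flt3, Zbtb46 and Xcr1 among them, and the summed level was 293.6 to 346.3 TPM in control and 215.8 to 295.2 TPM in LOY libraries, most of it Naaa. Of 8 B cell markers, 6 were under 5 TPM in every library, and the sum, 616.7 to 875.8 TPM in control and 496.4 to 963.5 TPM in LOY libraries, was mostly Ighm. All 7 T cell markers were under 5 TPM in every library. The neutrophil sum was 44.3 to 88.3 TPM in control and 83.6 to 102.2 TPM in LOY libraries, mostly Csf3r, and the cardiomyocyte sum was 51.1 to 91.5 and 53.5 to 144.4 TPM. The part of these cell types in the levels of the members was not tested. As a check of the labels, the summed TPM of the Y genes Ddx3y, Eif2s3y, Kdm5d and Uty was 80.8 to 109.1 in control and 2.77, 46.4, 1.49 and 2.12 in LOY replicates 1 to 4, so LOY replicate 2 kept part of the Y signal. Without LOY replicate 2, 0 members were called, and H2-Ab1 and Cd74 stood at 0.02 and 0.04 on the log2 scale.

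Of 38 further genes of the pathway, in 6 lists, 34 were tested, 0 were called, 6 were higher in LOY libraries at an unadjusted p under 0.05 and 0 lower, where 19.3% and 3.45% of all tested genes were. The counts for the single lists that follow are of at most 2 genes each and are read against the same shares. Among the remaining class II chains, H2-Oa and H2-Ob, which form the DO molecule that restrains DM, had log2 fold changes of -0.55 (SE 0.28) and 0.09, the latter changing sign under either scaling. H2-Oa stood at -0.30 without LOY replicate 1, -0.35 with the length and GC trend taken out, -0.22 with a pseudocount of 5 and -0.88 with one of 0.1. It was -0.73 with quantile normalization, -0.67 with median-of-ratios scaling and -0.76 without LOY replicate 4, and was called in none of these settings. H2-Eb2 stayed at or under 0.300 TPM and the pseudogene H2-Ea-ps at or under 0.101 TPM. Of 7 factors of the X and Y boxes, 2 had such a p: Creb1, a factor of the X box region, at 22.6 ± 4.49 against 34.3 ± 7.22 TPM (log2 fold change 0.58, SE 0.18; limma, adjusted p = 0.179), and Nfyb, a subunit of the Y box factor, at 15.4 ± 0.388 against 19.2 ± 1.12 TPM (0.30; limma, adjusted p = 0.192; SD, n = 4 each). The 4 LOY libraries lay above the 4 control libraries for Nfyb, as they did for 6.76% of all tested genes, and its log2 fold change was 0.063 with quantile normalization and 0.13 with median-of-ratios scaling. The median of the 7 was 0.13.

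Of 9 genes that act upstream of Ciita, the kinase genes of interferon-gamma signalling Jak1 and Jak2 had an unadjusted p under 0.05. Jak1 stood at 80.8 ± 24.6 against 120.4 ± 12.3 TPM and Jak2 at 10.3 ± 4.21 against 17.9 ± 4.41 TPM (SD, n = 4 each; limma, adjusted p = 0.181 for each), and the median of the 9 was 0.13. After median-of-ratios scaling the medians of both lists lay below 0. None of 8 endosomal proteases and reductases had such a p, with a median of 0.11; Ctsd, cathepsin D, stood at 1135 ± 208 against 1395 ± 184 TPM, and Sppl2a, which cuts the membrane stub of the invariant chain, at 101.6 ± 28.5 against 130.4 ± 30.3 TPM (SD, n = 4 each; limma, adjusted p = 0.270 and 0.318).

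Of 3 genes of class II turnover, the ubiquitin ligase genes March1 and March8 had such a p. March1, which directs class II molecules to lysosomes, stood at 67.6 ± 9.78 against 86.2 ± 10.6 TPM (log2 fold change 0.35, and 0.17 with median-of-ratios scaling; limma, adjusted p = 0.192), and March8 at 13.9 ± 5.09 against 21.4 ± 2.97 TPM (0.64; limma, adjusted p = 0.182; SD, n = 4 each). Of 5 tested T cell ligands other than Cd86, none had such a p, and the median was 0.18; Icosl, the ligand of ICOS, stood at 45.6 ± 15.3 against 63.6 ± 14.3 TPM and Cd274, which encodes PD-L1, at 10.1 ± 3.05 against 14.5 ± 4.06 TPM (SD, n = 4 each; limma, adjusted p = 0.222 and 0.247). Without control replicate 1, the adjusted p of Creb1, Jak1, Jak2, March8 and Icosl was 0.0252, 0.0202, 0.0233, 0.0206 and 0.0409 in limma, in the fit that called 14.9% of genes higher.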

How the data were processed

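RNA was sequenced from 8 libraries, 4 control and 4 LOY. Full-length cDNA was made with SMART-Seq v4 and libraries with Nextera XT, per the labels' protocols. The submitters' processing notes name the builds mm10 and GRCm38 and the tools STAR 2.5.2b, Trimmomatic 0.36, bcl2fastq 2.17, Subread 1.5.2 and featureCounts. The authors deposited TPM per gene and library; the sources used here do not name the tool that made it. The column headers end in TPM_sum, which was read as a sum over a gene's transcripts. The deposited table also holds the authors' log2 fold change, its standard error, p-value and adjusted p-value, used only where that table is named. Columns WT and KO, numbered 1 to 4, were read as control and LOY from their names and numbers.

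A filter kept the 11881 genes whose mean reached 1 TPM, and 156 with the same values as another ID were dropped. A pseudocount of 1 was added, so fold changes on the log2(TPM + 1) scale understate changes of low genes. The groups were compared in R 4.3.3 with limma 3.58.1, using its trend and robust settings; its code was tested on simulated data. The median half-width of a 95% interval was 0.41. Coordinates and symbols of genes outside the 10 came from GENCODE M21 by gene ID (35868 of 36708 found); the deposited symbols of March1 and March8 read as dates. Named were the 10 genes, the 2 members of each pathway list with the smallest p, as none was called, and the 5 genes most like the class II mean, skipping unnamed gene models. The members and lists were chosen with earlier results of these data known. A further gene of the monocyte list is not reported here, and the sum of that list leaves it out.

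Alternatives were pseudocounts of 0.1 and 5, a filter at 5 TPM or none, median-of-ratios scaling, quantile normalization, the replicate number as a block, limma without trend and robust options, library weights, removal of a trend on transcript length and GC, and leaving out each library.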

Additional observations from a re-analysis of the deposited data

Results flagged for a closer look

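Of 50 groups of 4 libraries checked with Dixon's criterion, 6 held a library far from the other 3; chance flags about 1 group in 20. H2-Aa stood at 8476 TPM in control replicate 4, against 11355 to 11798 TPM in the other control libraries. H2-Aa stood at 11071 TPM in LOY replicate 4, against 8628 to 8900.4 TPM in the other LOY libraries. Ciita stood at 62.5 TPM in control replicate 1, against 28.4 to 33.3 TPM in the other control libraries. Cd274 stood at 14.7 TPM in control replicate 4, against 8.23 to 8.80 TPM in the others. The ratio of Cd74 to H2-Ab1 was 2.30 in control replicate 1, against 1.93 to 1.97 in the others. The ratio of H2-DMb1 to H2-DMb2 was 88.4 in LOY replicate 1, against 47.9 to 54.7 in the other LOY libraries.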

How the results depend on the processing

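Genes called over the whole table numbered 0, but 3103 with library weights and 0 to 1805 when each library was left out, with 1805 without control replicate 1. Members called numbered 0, but 1, Ciita, with library weights and 0 to 1 when each library was left out. Members at an unadjusted p under 0.05 numbered 1, 0 with the replicate block and 0 to 2 when each library was left out. With the length and GC trend removed the count was again 1, but the gene was Cd86 (limma, unadjusted p = 0.0232), while Ciita stood at 0.0644. No pairing by replicate number was seen: r between the deviations of same-numbered libraries lay between -0.15 and 0.04, and 0 of 4 control libraries were most like the LOY library of their number. With so few libraries this check cannot exclude a pairing.

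With the length and GC trend removed, log2 fold changes turned to 0.13 for H2-Ab1, 0.035 for H2-Eb1, 0.046 for H2-DMb1, 0.14 for Cd74 and 0.17 for Ctss. Leaving out libraries gave -0.18 to 0.018 for H2-Ab1, -0.18 to 0.053 for Cd74 and -0.051 to 0.24 for H2-Ob. H2-Ob was -0.16 after quantile normalization, -0.083 after median-of-ratios scaling and -0.067 with library weights. Leaving out libraries moved the log2 ratio of H2-DMb1 to H2-DMb2 between -0.12 and 0.18 and that of Cd74 to H2-Ab1 between -0.0071 and 0.088.

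List medians moved to 0.089 for the remaining class II chains at a mean of at least 5 TPM. Those of the promoter factors moved to -0.014 after quantile normalization, -0.044 after median-of-ratios scaling and 0.28 with the length and GC trend removed, and those of the T cell ligands to -0.073, 0.0052 and 0.30, with 0.091 to 0.27 when libraries were left out. After median-of-ratios scaling the genes upstream of Ciita moved to -0.0027 and the proteases to -0.075. Values of single genes passed the threshold 14 times, all of them higher in LOY libraries, with library weights or without control replicate 1. Where no value shows it, the cause was not tested. The unknown depth limits what can be said of H2-DMb2, H2-Oa and other low genes.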

Other observations

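Csf3r, the receptor gene for granulocyte colony-stimulating factor, stood at 69.2, 46.3, 41.9 and 72.2 TPM in control and 82.9, 97.0, 92.0 and 90.9 TPM in LOY replicates. The LOY libraries lay above the control libraries, as they did for 6.76% of all tested genes (log2 fold change 0.69, SE 0.18, limma adjusted p = 0.179). Cd209a, a lectin gene of dendritic cells, stood at 1.56 TPM in control replicate 4 and at 11.5 to 28.1 TPM in the other 7 libraries. Both were chosen after their values were seen.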
